A study of Homo sapiens with 6 samples.

Results

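The genes followed here are 10 that are commonly read in the epithelial-mesenchymal transition (EMT), the programme by which epithelial cells loosen their contacts and take on features of mesenchymal cells. They are CDH1, CDH2, VIM, FN1, SNAI2, ZEB1, TWIST1, SPARC, AXL and NT5E. They were read through every probe set that the annotation of the HG-U133 Plus 2.0 array assigns to 1 of these symbols alone, which gave 27 of the 54675 probe sets on the array, each described apart. A probe set is a group of short probes against a stretch of a transcript. RNA came from Hep3B, a human hepatocellular carcinoma cell line, in 6 samples with 1 array each. The control group, pU6-2, was clone 2 of cells carrying the plasmid pU6. The other group, D20, was clone D20 of cells carrying the plasmid siSDHB, made to silence SDHB, a subunit of the mitochondrial enzyme succinate dehydrogenase. Cells of both groups were grown in medium with G418 until nearly confluent, and each group had 3 arrays, named A, B and C.

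Each group was a single clone, so that silencing and clone cannot be told apart. The labels do not state whether the arrays of a clone came from separate cultures, so the p-values measure only the spread between these arrays, which may be technical. SDHB itself was not analysed here. Values are MAS5 signals, in arbitrary units, scaled by the authors so that the trimmed mean was 500.1 on every array.

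In EMT, transcription factors of the SNAI, ZEB and TWIST families bind E-boxes, short DNA motifs, and repress CDH1, which encodes the epithelial adhesion protein E-cadherin. Cells then make N-cadherin (CDH2), the intermediate filament vimentin (VIM) and the matrix proteins fibronectin (FN1) and SPARC. AXL, a receptor tyrosine kinase, and NT5E, the cell-surface enzyme CD73 that makes adenosine from AMP, are often counted among mesenchymal surface proteins. Hepatocyte-derived cells commonly make fibronectin as a plasma protein, and liver cells can carry E-cadherin and N-cadherin together.

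The stretches just before the start of AXL and SPARC, the members with the largest rises, of NT5E, with the largest fall, and of ZEB1, a factor that binds E-boxes, are shown because these members moved the most, up or down, or act on E-boxes themselves. They are the 250 bases before the start of each gene in RefSeq (GRCh38.p14), written 5′ to 3′ on the strand of the gene. They lie at chr19:41218973-41219222 on the plus strand for AXL, chr5:151686916-151687165 on the minus strand for SPARC, chr6:85449833-85450082 on the plus strand for NT5E and chr10:31318167-31318416 on the plus strand for ZEB1. Capitals mark the E-box CACCTG, or CAGGTG, which is the same motif read on the other strand.
AXL: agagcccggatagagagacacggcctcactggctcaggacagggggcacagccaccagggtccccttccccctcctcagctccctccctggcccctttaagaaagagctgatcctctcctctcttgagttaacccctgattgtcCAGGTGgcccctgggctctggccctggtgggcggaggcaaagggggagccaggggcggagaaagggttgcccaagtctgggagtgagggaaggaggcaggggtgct
SPARC: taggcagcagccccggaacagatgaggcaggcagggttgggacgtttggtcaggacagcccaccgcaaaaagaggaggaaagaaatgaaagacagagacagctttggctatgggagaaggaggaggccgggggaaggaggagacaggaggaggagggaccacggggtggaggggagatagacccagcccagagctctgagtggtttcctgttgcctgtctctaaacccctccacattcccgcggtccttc
NT5E: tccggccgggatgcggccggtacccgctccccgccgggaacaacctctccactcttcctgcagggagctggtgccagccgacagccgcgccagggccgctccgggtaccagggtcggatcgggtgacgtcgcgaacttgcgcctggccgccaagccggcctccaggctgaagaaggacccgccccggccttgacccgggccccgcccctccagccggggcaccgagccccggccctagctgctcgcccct
ZEB1: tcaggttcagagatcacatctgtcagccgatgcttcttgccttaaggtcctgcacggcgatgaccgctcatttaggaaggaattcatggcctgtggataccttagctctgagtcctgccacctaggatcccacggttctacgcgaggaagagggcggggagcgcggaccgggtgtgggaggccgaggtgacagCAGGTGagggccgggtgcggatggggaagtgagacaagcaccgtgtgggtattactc
The window of AXL held CAGGTG once, beginning 106 bases before the start, and that of ZEB1 held it once, 57 bases before the start. ZEB1 had 7 windows, at different starts. Another of them held CACCTG and CAGGTG, 242 and 85 bases before its own start, and the rest held neither. SPARC and NT5E had no match in these windows, nor had those of VIM, FN1 and CDH2 at the gene start. This motif was found in 17.5% of all 35116 promoter windows of the same length, and the wider E-box CANNTG, of which it is 1 form, in 61.8%. A match describes letters and is not a site of binding. Windows were matched for 7 of the 10 genes. CDH1, SNAI2 and TWIST1 were not among them.

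The members did not move as 1 block. E-cadherin, vimentin, SPARC, AXL and 1 of 7 fibronectin probe sets were higher in D20, and N-cadherin, ZEB1 and CD73 were lower. SNAI2 and TWIST1 had no call. Of the 27 probe sets 23 were tested. The other 4 were among the 40% of probe sets with the lowest mean over all 6 arrays, a line that lay at a signal of 43.2. Of the 23, 6 were called higher (26.1%) and 6 lower (26.1%) by limma with a Benjamini-Hochberg adjusted p under 0.05, against 19.5% and 17.0% of all 32768 probe sets tested. In either direction 12 were called (52.2%), against 36.5% of all. The arrays of the clones did not overlap in 13 of the 23, the 12 called and 1 of ZEB1, against 47.2% of all tested (25.1% with D20 higher and 22.1% with D20 lower). In 3 of the 23 the mean of 1 clone lay below the dim line, so that they passed the filter through the other clone. Without any filter 7 of all 27 were higher (25.9%) and 6 lower (22.2%), against 10.9% and 9.33% of 54613 probe sets, or 20.2% in either direction, and 17 stood apart, against 33.4%. With arrays scaled on the spike-in controls 7 of the 23 were higher and 6 lower, where 38.1% of all were called, 28.0% higher and 10.1% lower. Probe sets of a gene are not independent of each other, and the shares were not compared by a test. The median log2 fold change of D20 over pU6-2 was 0.06 over the 23 and 0.03 over all probe sets tested, which spike-in scaling moved to 0.25 and median centring to -0.10. The 12 calls kept their direction under each scaling. At the level of genes, 5 members had probe sets called higher only, 3 had them called lower only, 0 had both and 2 had none.

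**Figure D1:**
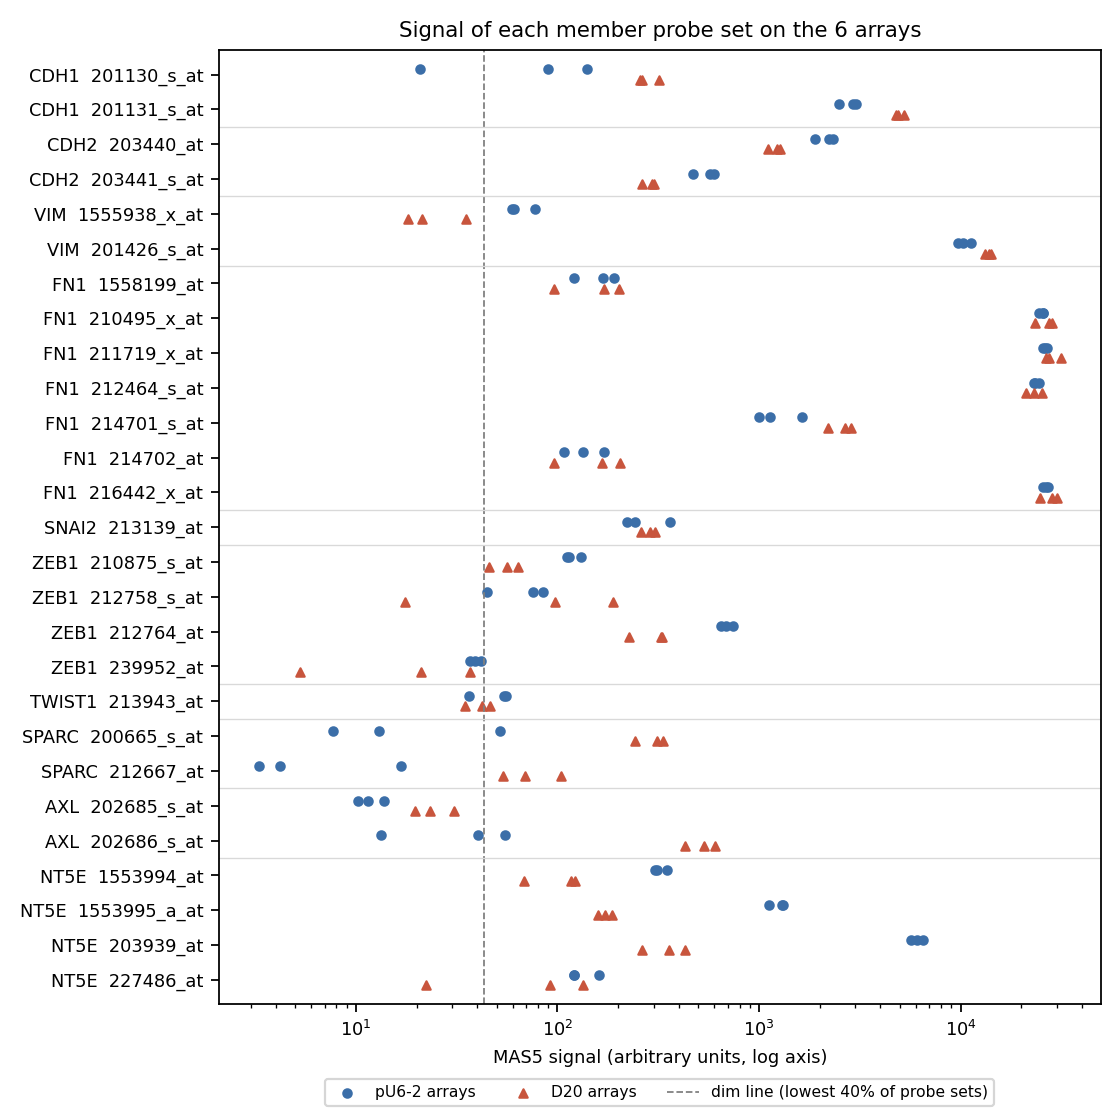
MAS5 signal on a log axis of each of the 27 probe sets of the 10 genes, with 1 point per array (circles pU6-2, triangles D20) and a dashed line at a signal of 43.2, below which the dimmest 40% of probe sets lie. The clones stand apart for both CDH1 and both CDH2 probe sets in opposite directions, and the 4 brightest FN1 probe sets overlap near the top of the range.

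The epithelial cadherin was higher in the clone carrying siSDHB. CDH1 joins neighbouring epithelial cells at adherens junctions. Its brighter probe set, 201131_s_at, had signals of 2921.3, 2500.1 and 3009.5 on the pU6-2 arrays A, B and C and of 5210.4, 4778.8 and 4906.5 on the D20 arrays. All D20 arrays lay above all pU6-2 arrays. The means were 2810.3 ± 272 (SD, n = 3) and 4965 ± 222 (SD, n = 3), or 1.77-fold higher in D20. The log2 fold change was 0.82 ± 0.09 (SE), adjusted p = 1.9e-05 (limma, Benjamini-Hochberg). The dimmer probe set, 201130_s_at, read 140.7, 89.8 and 20.9 in pU6-2 and 320.0, 261.2 and 256.0 in D20. It stood apart in the same direction, but its control arrays were widely spread, with C far below the other pU6-2 arrays. Its log2 fold change was 1.79 ± 0.44 (SE), adjusted p = 0.0065, and it was 1.19, adjusted p = 0.0096, without pU6-2 replicate C.

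The mesenchymal cadherin moved the other way. CDH2 is the cadherin that replaces E-cadherin in the cadherin switch of EMT. Probe set 203440_at read 2340.3, 1893.0 and 2219.9 in pU6-2 against 1226.2, 1103.1 and 1277.5 in D20. Every D20 array was below every pU6-2 array, at a log2 fold change of -0.83 ± 0.11 (SE), adjusted p = 8.6e-05. The second probe set, 203441_s_at, fell by 0.90 ± 0.17 (SE) on the log2 scale, adjusted p = 0.0012, from 546.2 ± 67.9 (SD, n = 3) to 285.2 ± 20.4 (SD, n = 3). Both cadherins were present in both clones, and their signals are not compared with each other because probe sets differ in how well they hybridise.

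Among other cadherins little could be tested, and the catenins, which tie cadherins to actin, moved both ways. Of the 8 other cadherins listed, 6 were named on the array and only CDH6 passed the filter, while CDH3, CDH5, CDH11, CDH16 and CDH17 did not. CDH6, or K-cadherin, read 426.3, 326.8 and 398.8 in pU6-2 against 3822.0, 3883.5 and 4011.6 in D20, which is a log2 fold change of 3.30 ± 0.12 (SE), adjusted p = 7.8e-10. This rise was larger than that of E-cadherin on either of its probe sets. JUP, which encodes plakoglobin, rose by 0.95 on the log2 scale (adjusted p = 4.2e-05). CTNNB1, beta-catenin, was lower, at -0.61 (adjusted p = 0.019) and was not called without pU6-2 replicate A (-0.42, adjusted p = 0.09), without pU6-2 replicate C (-0.61, adjusted p = 0.055) or without D20 replicate A (-0.44, adjusted p = 0.093). Nor was it called with spike-in scaling (-0.39, adjusted p = 0.076) or without the variance trend (adjusted p = 0.12). In all, 1 of 4 tested catenins was higher and 1 lower, and 2 and 2 with the brightest probe set of each gene. CTNNA1 was not called on the dim probe set that stood for it (-0.15, adjusted p = 0.85). Of its 5 tested probe sets 4 were called higher, the brightest at 0.69 (limma, adjusted p = 4.5e-05). CTNND2 was not called (0.02) but was lower on its brightest probe set (-0.45, adjusted p = 0.0047).

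Vimentin rose slightly from an already high level. VIM is the main intermediate filament protein of mesenchymal cells. Probe set 201426_s_at read 9710.9, 11293.5 and 10234.5 in pU6-2 and 13764.8, 14193.3 and 13242.5 in D20, which placed it near the 99.0th percentile of mean signal. The arrays of the clones did not overlap, and the log2 fold change was 0.40 ± 0.08 (SE), adjusted p = 0.0016. With every array centred on its median it was 0.27, adjusted p = 0.021, and with scaling on the spike-in controls 0.62. Without the variance trend its adjusted p was 0.048. The other VIM probe set, 1555938_x_at, was dim and not tested, at 59.6, 60.7 and 77.0 in pU6-2 and 21.3, 18.2 and 35.1 in D20, which is the opposite direction. In the fit without a filter its log2 fold change was -1.02 ± 0.49 (SE), adjusted p = 0.19.

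Filament genes that can accompany vimentin were mostly higher. Of 6 tested, 4 were higher and 1 lower, and their median log2 fold change was 0.69, where all 13781 genes tested had 0.04. Of all genes 42.0% were called, 22.4% higher and 19.6% lower. The log2 fold change was 2.00 for PRPH, peripherin, 1.15 for NES, nestin, and 0.98 for SYNM, synemin. It was 0.39 for KRT19, an epithelial keratin (adjusted p = 0.019), and was not called without pU6-2 replicate A (adjusted p = 0.094), D20 replicate A (adjusted p = 0.078) or D20 replicate B (adjusted p = 0.0503), nor with median centring. The 1 called lower was another keratin, KRT18, at -0.35 (limma, adjusted p = 0.0020). KRT8 lay at -0.27 and was not called (adjusted p = 0.058). PRPH was at 1.30 without pU6-2 replicate B. Without the variance trend neither PRPH (adjusted p = 0.054) nor KRT19 (adjusted p = 0.11) was called. The vimentin relatives desmin (DES), GFAP and internexin (INA) did not pass the filter.

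Fibronectin was among the brightest transcripts of both clones, and most of its probe sets were not called. FN1 encodes a matrix glycoprotein that cells bind through integrins. Of its 7 probe sets, 4 had mean signals between 23103.5 and 28418 in either clone, above the 99.5th percentile of all probe sets. For 211719_x_at the arrays read 26067.4, 25572.0 and 26809.7 in pU6-2 and 26393.2, 27496.5 and 31365.9 in D20. The clones overlapped, and the log2 fold change was 0.12, with a 95% interval of -0.06 to 0.29 (limma, adjusted p = 0.29). For 210495_x_at, 212464_s_at and 216442_x_at the log2 fold changes were 0.06, -0.03 and 0.06, none called. With spike-in scaling they were 0.28, 0.19 and 0.28, still not called, and 211719_x_at was called higher (0.33, limma, adjusted p = 0.023). Saturation of such bright spots could not be read from the signals and was not analysed here.

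A single FN1 probe set, 214701_s_at, was higher in D20. It read 1003.4, 1625.9 and 1130.2 in pU6-2 and 2856.2, 2186.0 and 2660.4 in D20, without overlap. Its log2 fold change was 1.05 ± 0.16 (SE), adjusted p = 2.3e-04, and its 95% interval of 0.69 to 1.40 lay above those of the 4 bright probe sets, whose highest upper bound was 0.29. The remaining pair, 214702_at and 1558199_at, were dim and not called, at log2 fold changes of 0.13 (95% interval -0.58 to 0.83) and -0.06 (95% interval -0.75 to 0.63). FN1 is spliced into several forms, and which form each probe set reads was not tested.

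**Figure D2:**
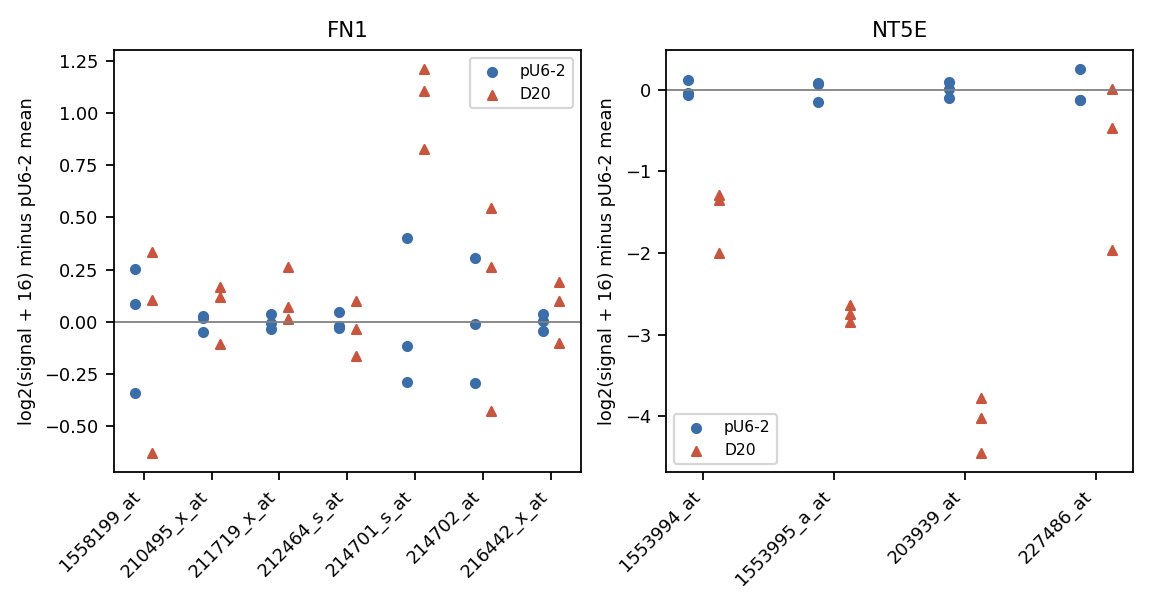
Difference of each array's log2(signal + 16) from the mean of the pU6-2 arrays, by probe set, for FN1 (left) and NT5E (right), with circles for pU6-2 and triangles for D20. In FN1 the clones stand apart only at 214701_s_at, and in NT5E the size of the fall differs between probe sets, from a log2 fold change of -4.08 to -0.81.

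Genes for fibronectin receptors were higher or not called. Of 7 tested, 3 were higher and 0 lower (4 higher and 0 lower at an unadjusted p under 0.05, limma), with a median log2 fold change of 0.39. The median of the list was 0.15 without a filter. Of all genes tested, 22.4% were called higher and 19.6% lower. ITGA5, the alpha chain of the classical fibronectin receptor, read 195.3, 271.2 and 227.2 in pU6-2 and 1394.4, 1512.0 and 938.4 in D20. All D20 arrays lay far above the others, at a log2 fold change of 2.37 ± 0.20 (SE), adjusted p = 9.8e-07. Its partner ITGB1 rose by 0.63 and the syndecan SDC4 by 0.63. When all probe sets entered, a dimmer probe set stood for ITGB1, at -0.41, adjusted p = 0.71.

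Among the EMT transcription factors of the set, ZEB1 was lower in D20, and SNAI2 and TWIST1 had no call. ZEB1 is a zinc-finger repressor of CDH1. Its brightest probe set, 212764_at, read 744.6, 651.0 and 687.4 in pU6-2 and 330.5, 226.5 and 325.4 in D20, apart on all arrays, with a log2 fold change of -1.21 ± 0.18 (SE), adjusted p = 1.6e-04. Probe set 210875_s_at read 114.5, 130.7 and 111.3 against 63.4, 45.7 and 56.5, also apart, but its log2 fold change of -0.93 ± 0.36 (SE) was not called (adjusted p = 0.062). It was called with quantile normalization (adjusted p = 0.036), with median centring (adjusted p = 0.035) and without the variance trend (adjusted p = 0.0062). Probe set 212758_s_at was scattered in D20, at 17.5, 189.6 and 96.8 against 44.5, 84.7 and 75.6 in pU6-2, and gave no call (adjusted p = 0.87). The dimmest, 239952_at, was not tested.

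For SNAI2, or Slug, probe set 213139_at read 359.6, 221.1 and 242.2 in pU6-2 and 306.2, 260.8 and 286.4 in D20. The clones overlapped, with a log2 fold change of 0.08 and a 95% interval of -0.41 to 0.56 (adjusted p = 0.83). TWIST1, read by 213943_at, was near the dim line in every array, at 54.3, 36.6 and 55.4 in pU6-2 and 34.6, 42.1 and 46.4 in D20. Its log2 fold change of -0.18 had a 95% interval of -1.23 to 0.88 (adjusted p = 0.82), so that a change of over 2-fold down was not detectable as absent at this signal.

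**Figure D3:**
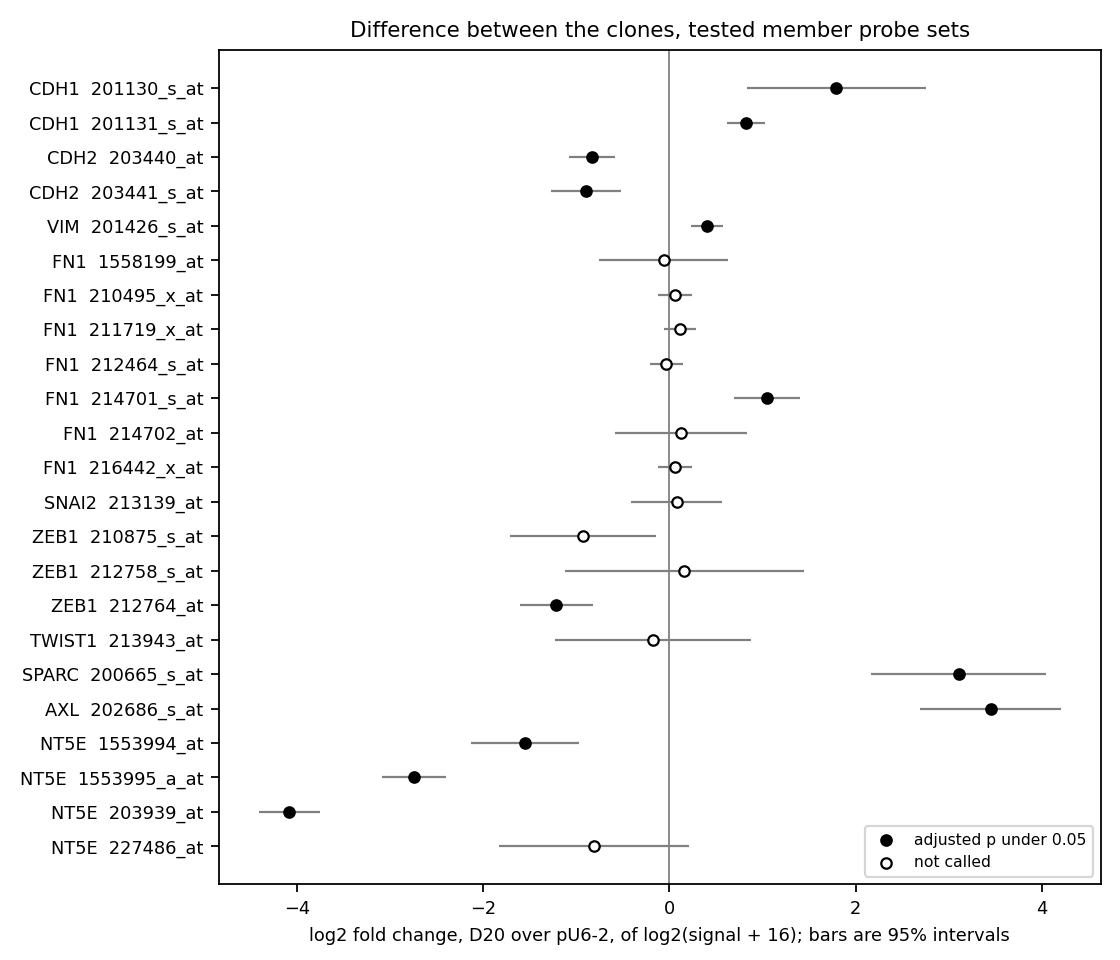
Log2 fold change of D20 over pU6-2 on the log2(signal + 16) scale for the 23 tested probe sets of the 10 genes, with 95% intervals from limma. Filled points have an adjusted p under 0.05, and they run from -4.08 for NT5E 203939_at to 3.45 for AXL 202686_s_at.

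Relatives of these factors were mostly dim or not called on the probe sets that stood for them. Of 15 other EMT transcription factors listed, 13 were named on the array and 9 tested, with 1 higher and 2 lower (2 and 3 with the brightest probe set of each gene). Their median log2 fold change was -0.28, but 0.17 with the brightest probe set, 0.39 when each gene's probe sets were averaged, 0.049 without a filter and -0.0057 without D20 replicate B, so that it gives no direction. PRRX1, a homeobox factor of mesenchyme, read 336.2, 405.3 and 305.4 in pU6-2 and 2660.3, 2819.2 and 2865.8 in D20, or a log2 difference of 2.95 ± 0.13 (SE), adjusted p = 3.6e-09. SOX9 (-0.65) and FOXQ1 (-0.55) were lower, and FOXQ1 was not called with spike-in scaling (-0.33, adjusted p = 0.058). TCF3 (-0.28) and TCF4 (-0.59) were not called on the probe sets that stood for them. On its brightest probe set TCF3 was higher (0.76, limma, adjusted p = 1.5e-05), and TCF4 was lower on its own brightest (-1.58, adjusted p = 0.038). Of 11 TCF3 probe sets tested, 6 were called higher. SNAI1 had signals between 49.9 and 148.6 and no call (log2 fold change 0.50, adjusted p = 0.4). ZEB2 and TWIST2, the closest relatives of ZEB1 and TWIST1, did not pass the filter, with signals of at most 65.8 and 59.3.

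Factors that keep the epithelial state were split. Of 8 tested, 2 were higher and 2 lower (3 and 2 with the brightest probe set), with a median of 0.24. ESRP1, an epithelial splicing factor that ZEB1 can repress, read 992.9, 1003.0 and 1026.3 in pU6-2 and 7853.6, 6830.2 and 9518.0 in D20. Its log2 fold change was 2.97 ± 0.11 (SE), adjusted p = 1.2e-09, and the clones were far apart. OVOL2, a repressor of ZEB1, rose by 2.06 ± 0.56 (SE) from a dim level, adjusted p = 0.011, and by 2.82 without D20 replicate C, where another of its probe sets took its place. KLF4 (-1.77) and EHF (-1.73), factors of epithelial differentiation, were lower, and KLF4 was not called with the mean of its probe sets (-0.57, adjusted p = 0.055).

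SPARC and AXL, near or below the dim line in the control clone, had the largest rises among the members. SPARC is a collagen-binding matrix protein. Its probe set 200665_s_at read 13.0, 7.7 and 51.7 in pU6-2 and 333.6, 313.3 and 241.7 in D20. All D20 arrays stood above the pU6-2 arrays, among which C was the highest. The log2 fold change was 3.11 ± 0.43 (SE), adjusted p = 9.6e-05, and it ranged from 2.06 with a pseudocount of 64 to 3.99 with a pseudocount of 1. The other probe set, 212667_at, was not tested, at 4.2, 3.3 and 16.8 against 53.7, 68.7 and 104.4, and without a filter its log2 fold change was 1.93 ± 0.49 (SE), adjusted p = 0.013.

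Genes related to SPARC by sequence also differed. Of 7 listed, 5 were tested, with 3 higher and 1 lower, where 22.4% and 19.6% of all genes tested were called. Their median log2 fold change was 1.62. It was 0.36 without a filter, 0.88 when each gene's probe sets were averaged and 2.72 without D20 replicate B. FSTL1, a secreted follistatin-like protein, read 79.4, 45.6 and 53.5 in pU6-2 and 1222.0, 1127.7 and 1185.1 in D20, or a log2 difference of 4.01. SPOCK3, a matrix proteoglycan, rose by 3.62 and SMOC1 by 1.62, while SPOCK2 was lower (-1.10, adjusted p = 0.0066). SPARCL1 and SPOCK1 did not pass the filter.

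AXL binds the ligand GAS6 and signals for survival and migration. Its probe set 202686_s_at read 54.9, 40.4 and 13.3 in pU6-2 and 431.6, 531.2 and 603.7 in D20. No array of D20 came near those of pU6-2, and the log2 fold change was 3.45 ± 0.35 (SE), adjusted p = 5.9e-06. The second probe set, 202685_s_at, was dim everywhere, at 11.5, 10.3 and 13.8 against 23.3, 19.6 and 30.6, and was not tested. Its values ran in the same direction, and without a filter the log2 fold change was 0.53, adjusted p = 0.44.

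The ligands and kinase relatives of AXL did not pass the test. Of GAS6, PROS1, TYRO3 and MERTK, 0 of 4 were called by limma, with 1 higher at an unadjusted p under 0.05. Their median was -0.03, and 0.19 with spike-in scaling. GAS6 read 279.5, 164.5 and 163.5 in pU6-2 and 161.4, 150.0 and 232.6 in D20, overlapping, at a log2 fold change of -0.13 (adjusted p = 0.77). PROS1, the other ligand, stood apart between the clones at 0.22 but was not called (adjusted p = 0.085). TYRO3 (0.08) and MERTK (-0.30) had no call. PROS1 was called with quantile normalization (0.25, adjusted p = 0.048), with spike-in scaling (0.44, adjusted p = 0.0054) and without D20 replicate B (0.27, adjusted p = 0.046).

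NT5E had the largest difference of the members and fell. Probe set 203939_at read 5649.2, 6077.1 and 6474.8 in pU6-2 and 358.4, 429.1 and 262.9 in D20. The lowest pU6-2 array was far above the highest D20 array, the means being 6067 ± 413 (SD, n = 3) and 350.1 ± 83.4 (SD, n = 3), or 17.3-fold lower in D20. The log2 fold change was -4.08 ± 0.15 (SE), adjusted p = 8.7e-10. Probe set 1553995_a_at read 1118.6, 1304.5 and 1317.8 against 171.3, 159.4 and 187.0, with a log2 fold change of -2.74 ± 0.16 (SE), and 1553994_at read 305.6, 348.8 and 312.0 against 68.1, 116.5 and 122.1, with one of -1.55 ± 0.27 (SE). These 3 were called and had no overlap between clones. The fourth, 227486_at, read 120.9, 161.1 and 120.9 against 133.4, 91.5 and 22.2, overlapped and had no call (log2 fold change -0.81, adjusted p = 0.21). Brighter probe sets of NT5E gave larger differences, and the cause was not tested.

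Around CD73, genes of extracellular nucleotides and adenosine moved both ways. Of 10 tested, 3 were higher and 2 lower (3 and 1 with the brightest probe set), with a median of 0.26. ENTPD1, the enzyme CD39 that makes the AMP on which CD73 acts, went from 86.5 ± 16.3 (SD, n = 3) to 115.8 ± 12.4 (SD, n = 3) without overlap and without a call (log2 fold change 0.37, adjusted p = 0.42). ADORA2B, an adenosine receptor, had none either (0.13, adjusted p = 0.57). SLC29A2, a nucleoside transporter, fell by 2.16 ± 0.22 (SE) on the log2 scale. ADA (0.93), which deaminates adenosine, and PNP (0.76), which acts after it, were higher. ENPP1, another maker of AMP, was lower (-0.75), but not with its brightest probe set (-0.13, adjusted p = 0.47) or with spike-in scaling (adjusted p = 0.06).

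TGF-beta, the best-known inducer of EMT, signals through receptors and SMAD proteins. Of 12 such genes tested, 6 were higher and 2 lower (6 and 3 with the brightest probe set), with a median of 0.26. Of all genes tested, 22.4% were called higher and 19.6% lower. The median of the 12 was 0.13 without a filter and 0.48 with spike-in scaling. The inhibitory SMAD7 read 511.3, 646.4 and 611.2 in pU6-2 and 2263.9, 2268.9 and 2333.3 in D20, or a log2 difference of 1.93 ± 0.12 (SE). SMAD6, also inhibitory, rose by 1.60 and the receptor ACVR1 by 1.42. TGFBR3, a co-receptor, was lower (-1.38) and was not called without pU6-2 replicate C (-1.29, adjusted p = 0.058). The other gene called lower was the receptor TGFBR2, at -0.72 (limma, adjusted p = 1.9e-04). The receptor TGFBR1 was not called on the dim probe set that stood for it (-0.75, adjusted p = 0.35). On its brightest probe set it was lower (-1.32, adjusted p = 1.3e-05). For SMAD6 a dimmer probe set took its place when no filter was used, at -0.060, adjusted p = 0.97.

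Mesenchymal genes often read beside the members moved both ways, with more called higher than lower. Of 20 listed, 19 were named on the array and 13 tested, with 5 higher and 2 lower and a median of 0.79. Of all genes tested, 22.4% were called higher and 19.6% lower. The median of the list was 0.36, 0.32 and 0.33 without D20 replicate A, B or C, and 0.37 with a pseudocount of 1. With the brightest probe set 8 were higher and 2 lower. The higher then included TAGLN (2.64), TPM1 (2.50), THBS1 (1.71) and MYL9 (1.01). The 2 lower were CALD1 (-0.94, limma, adjusted p = 1.1e-05) and LGALS1, with either choice of probe set. ACTA2 (-0.23), COL1A2 (0.16) and TPM2 (-0.08 on its brightest probe set) had no call. COL1A1, a chain of type I collagen, read 1.3, 1.7 and 0.7 in pU6-2 and 4230.5, 3670.1 and 3439.5 in D20 on the probe set that stood for it. In all, 4 COL1A1 probe sets were tested. With a pseudocount of 1, or without D20 replicate A, B or C, another COL1A1 probe set was the brightest and stood for it. That probe set gave log2 fold changes of 0.28 to 0.35 and no call. FBN1, fibrillin-1, rose by 2.06, and a dimmer probe set, which stood for it without a filter, gave 1.26 (adjusted p = 0.13). CNN1, calponin, was called at 1.75 (adjusted p = 0.031) but not without pU6-2 replicate A (1.36), pU6-2 replicate B (1.54) or D20 replicate C (1.92), nor without a filter or without the variance trend (adjusted p = 0.053 in both), and it was 2.34 without pU6-2 replicate C. LGALS1, galectin-1, read 1392.2, 1461.0 and 1227.9 in pU6-2 and 324.1, 325.7 and 225.9 in D20, a fall of 2.17 ± 0.17 (SE) on the log2 scale. S100A4, TNC, CD44, POSTN, COL5A1 and MMP2 did not pass the filter.

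**Figure D4:**
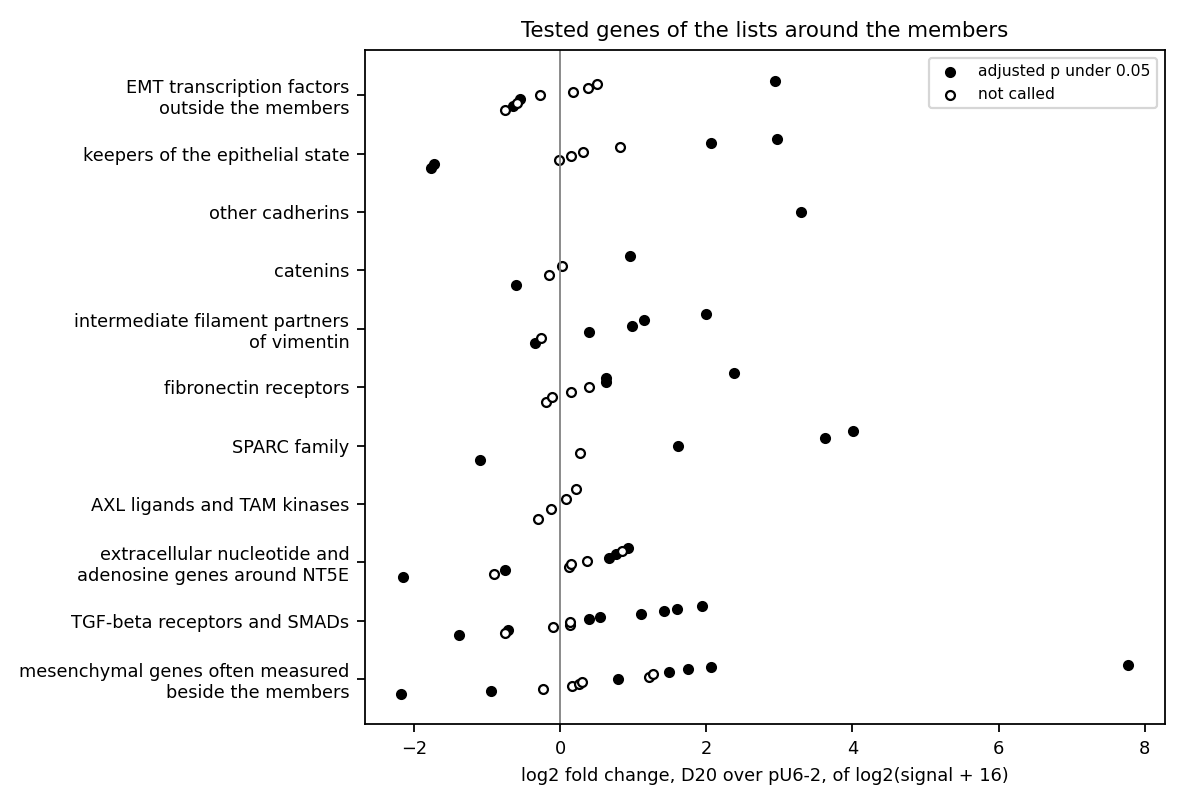
Log2 fold change of D20 over pU6-2 for each tested gene of the 11 lists around the members, with filled points for an adjusted p under 0.05. Points lie on both sides of 0 in most lists, and the AXL ligands and TAM kinases hold no filled point.

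Markers of the labelled line and of other cell types were read beside these results. In bulk RNA, fewer cells of a type and less RNA per cell cannot be told apart. Of 10 hepatocyte markers tested, 1 was higher and 9 lower (1 and 8 with the brightest probe set). The 1 higher was FGB, with means of 2004.5 in pU6-2 and 6569.2 in D20 (log2 fold change 1.705, limma, adjusted p = 1.3e-08). Among the lower were AFP (-5.62), TTR (-2.99), TF (-2.25) and ALB (-2.39), which had 0.0049 on its brightest probe set. The summed signal of the hepatocyte markers was 112040.0 to 112597 in pU6-2 and 34083 to 37139 in D20. The brightest in both clones were AHSG (means of 35687 and 9766) and APOB (32855 and 14312). The sum therefore does not show that each marker was present in D20. APOA1, on the probe set that stood for it, read 61.5, 16.4 and 79.7 there. Of 8 fibroblast markers 5 were tested, with 0 higher (0 at an unadjusted p under 0.05, limma) and 2 lower, and their summed signal was 1195.5 to 1324.8 in pU6-2 and 772.1 to 992.7 in D20. COL3A1, FAP and COL6A3 did not pass the filter. The lower pair were LUM (-2.89, or, where another of its probe sets took its place, -0.67 without pU6-2 replicate C and -0.018 with no filter, neither called) and PDGFRA (-0.58, not called without pU6-2 replicate A at -0.51 or with spike-in scaling at -0.36, and at 0.71 when its probe sets were averaged). The endothelial sum was 174.6 to 348.8 in pU6-2 and 310.0 to 479.7 in D20, with VWF below the filter. Of 7 endothelial markers 2 were tested and PECAM1 was higher (1.63), from 62.5 ± 38.3 (SD, n = 3) to 213.1 ± 41.1 (SD, n = 3), and of 5 blood markers named on the array 3 were tested and LYZ was lower (-7.34), with PTPRC below the filter and a blood sum of 3923.1 to 5253.6 against 166.4 to 250.5. Of 5 biliary markers 3 were higher, SPP1 (1.09), EPCAM (0.41) and KRT19, and SOX9 was lower, with a sum of 19571.5 to 20407.9 against 20923.3 to 23728.1. SPP1 was not called without pU6-2 replicates A or C or D20 replicates A or C, at 0.90 to 1.07, nor with the replicate block (adjusted p = 0.070), quantile normalization (adjusted p = 0.080), median centring (adjusted p = 0.076), no filter (adjusted p = 0.11) or a pseudocount of 1 (adjusted p = 0.054). EPCAM was not called without the variance trend (adjusted p = 0.055). Both groups were clones of the Hep3B line, so a signal of such a marker does not show that cells of that type were present. Any part of other cell types in the members' values was not tested.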

How the data were processed

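Gene expression was measured in 6 samples of Hep3B cells, 3 of clone pU6-2 and 3 of clone D20, with groups taken from the sample titles. The deposited values are MAS5 intensity values on a linear scale, 1 per probe set and array, per the submitters' processing notes. The MAS5 version and scaling target were not given in the sources used here, and no detection calls were used. The median signal was 77.5 to 83.9 on the pU6-2 arrays and 85.9 to 92.2 on the D20 arrays, without overlap. The ratio of 3′ to 5′ signal of the ACTB control was 1.42 to 1.90 in pU6-2 and 1.40 to 1.68 in D20. The number of arrays limits the precision.

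Probe sets were named through the platform annotation, updated by Entrez identifier to RefSeq symbols. Of 54675, 62 were controls, 41091 had 1 symbol, 1801 several and 11721 none. Signals were transformed to log2(signal + 16), which understates the change of dim genes. Controls and the dimmest 40% were left out, and D20 was compared with pU6-2 by limma 3.58.1 in R 4.3.3 (variance trend, no covariate, two-sided, Benjamini-Hochberg over the 32768 probe sets left, threshold 0.05). The fit was tested on simulated data.

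All 27 member probe sets are named. Around them stand 11 lists with 115 genes. The array names 106 of them, and 79 passed the filter. There were also 5 lists of cell type markers. The brightest tested probe set stood for a list gene, and probe sets without a suffix such as _s_ or _x_ were preferred. Up to 4 called genes of each list with the largest changes are named, with SNAI1, ZEB2, TWIST2, CTNNB1, GAS6, ADORA2B, ITGA5 and ENTPD1. Genes below the filter or without a call that complete a list are named too. So are KRT18, KRT8, TGFBR1, TGFBR2, TPM1, TAGLN, THBS1, MYL9, CALD1, TCF3, TCF4, CTNNA1, CTNND2, FGB, AHSG, APOB and APOA1. These additions were made after their values were seen. The members and lists were chosen with earlier results of these data known. The letters A, B and C did not pair the arrays. Alternatives covered the pseudocount, filter, normalization, variance model, replicate block, each left-out array and the choice of probe set.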

Additional observations from a re-analysis of the deposited data

How the results depend on the processing

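The 12 member probe sets called kept their direction and their call under every alternative in which they passed the filter. Their highest adjusted p was 0.049 (CDH1 201130_s_at, without the variance trend) and their log2 fold changes ranged from 1.19 to 2.23 for that probe set, from 0.27 to 0.62 for VIM 201426_s_at, from 0.69 to 1.04 for CDH1 201131_s_at and from -0.96 to -0.61 for CDH2 203440_at. Without the dimmest 60%, SPARC 200665_s_at and CDH1 201130_s_at were not tested. Of the uncalled, FN1 211719_x_at was called higher with spike-in scaling (0.33, adjusted p = 0.023), and so was FN1 210495_x_at with the Trp controls left out (0.27, adjusted p = 0.044). All 6 member probe sets called higher carry a suffix for probes that can match several transcripts. Without such probe sets 0 of 9 were higher (0 at an unadjusted p under 0.05, limma) and 4 lower. CDH1, VIM and AXL had no probe set without a suffix, and that of SPARC, 212667_at, was below the filter. These genes could not enter the count, so it does not bear on their rises. Without a filter 212667_at was higher (1.93, adjusted p = 0.013). Spike-in scaling shifted all probe sets upward (median 0.25 in place of 0.03), and median centring downward (-0.10). The number of all probe sets called lower went from 5555 to 3318 with spike-in scaling, and to 3353 with the Trp controls left out, against 6397 and 9169 called higher. With median centring 4962 were higher and 7182 lower. Leaving out single arrays gave 5354 to 5865 probe sets higher and 4361 to 5453 lower, with 6 and 6 member probe sets called each time. Over the lists 29 genes were higher and 13 lower, 25 to 29 and 11 to 16 with an array left out, and 36 and 15 with the brightest probe set of any kind, a choice added, with the second spike-in scaling, after the data were seen. The calls of ITGB1 (-0.41) and SMAD6 (-0.060) without a filter, ALB (0.0049) with the brightest probe set and PDGFRA (0.71) with the mean of its probe sets changed sign, each through other probe sets of the gene. With the replicate block 6658 probe sets were higher and 5899 lower, 6 and 6 of the members, and no member's call changed. Among the named list and marker genes, apart from those added later, SPP1 lost its call (adjusted p = 0.070). Deviations of same-lettered arrays from their clone means correlated at -0.02, 0.05 and 0.01. Dim signals limit what can be said of TWIST1, ZEB1 239952_at and AXL 202685_s_at.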
